A study of Ovis aries with 9 samples.

Results

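The 10 genes described here encode the α subunits of heterotrimeric G proteins in the sheep hypothalamus: GNAQ and GNA11 of the Gq class, GNAS and GNAL of the Gs class, GNAI1, GNAI2, GNAI3, GNAO1 and GNAZ of the Gi class, and GNA13 of the G12 class. They were chosen by name, with earlier results of these data known, and are 10 of the 21284 genes with a RefSeq symbol and at least 1 coding transcript in the deposited table. Hypothalamic tissue came from 9 untreated Dolang ewes, 3 in each stage, which were 120 days old (prepuberty), 130 days old (puberty) or 150 days old (postpuberty). Each animal gave 1 RNA library, and no group carried a genetic change. Stages were judged by the behaviour of the ewes and the state of the vulva. Animals, libraries and values are named below by stage and replicate number. The level of a gene is the sum over its coding transcripts (RefSeq identifiers starting with NM or XM) of the deposited FPKM, that is fragments scaled to the length of the transcript and to the mapped fragments of the library, so levels can be compared between genes of a library. Between libraries they are compared as deposited. The effect of scaling on stage differences is given under the processing alternatives. Matches of a gene with markers over single libraries were not repeated with scaled values. Fragments assigned to assembled transcripts without a gene symbol are missing from the level of any gene.

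A heterotrimeric G protein couples a membrane receptor to enzymes inside the cell, and its α subunit decides which enzyme is reached. Gs subunits stimulate adenylyl cyclase and raise cyclic AMP, Gi subunits inhibit it, Gq subunits activate phospholipase C beta and release calcium from stores, and G12 subunits act on the small GTPase RhoA. In the hypothalamus, Gq is the route by which the kisspeptin receptor excites GnRH neurons and Gi is the route of opioid, GABA-B and many other inhibitory receptors.

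Puberty replicate 2 stood apart from the other 8 libraries. Its FPKM values over all rows summed to 599726, against 359588 to 398109 in the others, and 42441 rows were above 0 in it, against 67824 to 71787. The 10 genes together held 604 FPKM there, against 836 to 1207 FPKM in the other 8 libraries. Results are therefore given with and without it, and "8 libraries" below always means the set without puberty replicate 2. The tissue label was checked on 20 hypothalamic genes. Of these, GNRH1 and FEZF1 were listed at 0 in all 9 libraries, 7 others stayed under 0.5 FPKM in every library, and NKX2-1, a transcription factor of the hypothalamus, reached at most 0.262 FPKM. The other 11 reached at least 0.5 FPKM in some library, led in the mean by SST (41.9 FPKM), CRH (15.9), TRH (10.8), POMC (8.87) and NPY (7.08). Neuronal, astrocytic and oligodendrocytic markers were present in all 9 libraries.

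GNAS, the gene of the ubiquitous stimulatory subunit Gαs, was the most abundant of the 10 mRNAs in all 9 libraries. The GNAS level sums 20 coding transcripts, which were not sorted by the protein they encode. This level and the Gs shares below are therefore not shown to be Gαs mRNA alone. GNAS was at 853, 1015 and 693 FPKM in prepuberty replicates 1, 2 and 3. It was 885, 373 and 792 FPKM in the puberty libraries and 582, 855 and 813 FPKM in the postpuberty libraries. The stages overlapped, and the lowest value of all was that of puberty replicate 2. The stage means were 854 ± 161 FPKM at prepuberty, 683 ± 272 at puberty and 750 ± 147 at postpuberty (SD, n = 3 each). The puberty mean was 838 FPKM without puberty replicate 2. In bulk tissue, fewer cells of a type that express a gene and less RNA per cell cannot be told apart, which holds for every level given here.

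GNAL, the Gs-class subunit of olfactory and striatal neurons, had the lowest mean. It measured 0.795, 2.92 and 1.69 FPKM at prepuberty, 2.58, 0.673 and 1.55 FPKM at puberty and 1.31, 1.96 and 2.12 FPKM at postpuberty. Its mean over 9 libraries was 1.73 FPKM, although GNAZ was lower still in 5 of the 9, and GNAS exceeded it between 343-fold and 1073-fold within a library. The Gs class of this tissue was therefore GNAS almost alone: GNAL made up 0.0931 to 0.29% of the class in the 8 libraries and 0.18% in puberty replicate 2. The summed level of 9 striatal markers ranged from 40.6 to 93.1 FPKM and was highest in puberty replicate 1, which had the second highest GNAL level. PENK alone gave 62.7 FPKM of that sum, and without PENK the other 8 markers summed highest in puberty replicate 2 (52.8 FPKM), which had the lowest GNAL. Whether striatal tissue had a part in GNAL levels was not tested.

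Among the Gi-class genes, GNAI2 was the most abundant in all 9 libraries. It measured 115, 69.0 and 81.2 FPKM at prepuberty, 73.0, 123 and 90.6 FPKM at puberty and 107, 68.0 and 103 FPKM at postpuberty. Every stage held both a low and a high library. The 7 astrocyte markers summed to 3909 to 9429 FPKM at prepuberty, 5618 to 8158 at puberty and 3879 to 7644 at postpuberty, mostly GFAP and S100B. This sum was lowest in prepuberty replicate 2 and postpuberty replicate 2, which also had the lowest GNAI2 levels, but single markers differed. In puberty replicate 2, where GNAI2 was highest as deposited, AQP4 (18.3 FPKM), GJA1 (43.4) and SLC1A2 (0.00353) were at their lowest of the 9 libraries, ALDH1L1 (59.1) was at its highest, and GFAP (5886) and S100B (2054) were second highest. The 8 microglial markers summed to 520 FPKM in prepuberty replicate 1 and 341 in puberty replicate 2. In postpuberty replicates 1 and 3 they summed to 233 and 577 FPKM. All of these libraries had GNAI2 at 103 FPKM or more, with values as deposited. The FPKM of puberty replicate 2 summed to 599726 over all rows, against 359588 to 398109 in the others. The match was not repeated with scaled values. The microglial sum was lowest in puberty replicate 1 (144 FPKM) and replicate 2 of both other stages (157 and 109). CX3CR1 (6.36 FPKM), however, was at its lowest in puberty replicate 2. Whether the share of astrocytes or microglia had a part in this was not tested.

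GNAI1 was second in the class and steadier. Its level was 50.6, 45.3 and 49.1 FPKM at prepuberty, 47.9, 37.0 and 50.8 FPKM at puberty and 68.8, 53.5 and 44.3 FPKM at postpuberty. GNAI2 exceeded GNAI1 within every library, by 1.27 to 2.33 times in the 8 libraries and 3.34 times in puberty replicate 2. GNAI3, the third of the closely related Gαi proteins, measured 8.05, 4.59 and 5.26 FPKM at prepuberty, 5.91, 3.85 and 7.34 FPKM at puberty and 7.84, 5.51 and 6.67 FPKM at postpuberty. The ratio of GNAI2 to GNAI3 held between 12.3 and 15.5 in the 8 libraries, whereas it was 32.0 in puberty replicate 2.

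GNAO1 and GNAZ varied far more between animals than the other 8 genes did. GNAO1 encodes Gαo, a subunit that neurons make in large amounts, and it measured 4.30, 21.5 and 6.88 FPKM at prepuberty, 4.91, 26.4 and 26.4 FPKM at puberty and 13.0, 16.6 and 7.87 FPKM at postpuberty. Highest and lowest of the 8 libraries differed 6.13-fold, and the stages overlapped. The standard deviation of its log2(FPKM + 1) over the 8 libraries was 0.89, larger than that of 95.7% of the 14238 genes kept for testing, whose median was 0.28. The 3 of the 8 libraries with the most GNAO1 were puberty replicate 3 and replicate 2 of both other stages. They also had the most SYT1, a neuronal vesicle protein gene, with 69.1, 117 and 68.1 FPKM. In puberty replicate 2, SYT1 was at 3.13 FPKM. SNAP25 had the same 3 highest of the 8 libraries, but the other neuronal markers of the list did not. GAP43, for instance, was at its lowest of the 8 libraries in puberty replicate 3 (43.2 FPKM). The sum of the 11 neuronal markers was highest in postpuberty replicate 3 (2408 FPKM), where GNAO1 was 7.87 FPKM. The part of neurons in these levels was not tested.

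GNAZ, which encodes the pertussis-toxin-resistant subunit Gαz of neurons and platelets, was at most 1.09 FPKM or near 40 FPKM in the 8 libraries. At prepuberty it was 41.7 FPKM in replicate 1, 0.922 in replicate 2 and 0.779 in replicate 3. At puberty it was 1.09, 13.8 and 41.2 FPKM, and at postpuberty 0.259, 0.867 and 39.6 FPKM. Each stage thus had exactly 1 library at about 40 FPKM, and puberty replicate 2 was the only intermediate value. The span over the 8 libraries was 161-fold. It rested on the 0.259 FPKM of postpuberty replicate 1, and the next lowest value was 0.779 FPKM. The standard deviation of log2(FPKM + 1) was 2.38, larger than that of 99.9% of genes kept.

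The GNAZ difference between animals came from 1 transcript, XM_027956862.3, the only coding transcript of the gene in the annotation. Assembled transcripts without a gene symbol were not summed. GNAZ fragments that StringTie assigned to such a transcript would be missing from these values and could change the 161-fold span. This limit holds for every gene here, including GNAO1, for the order of the genes and for the class shares. GNAZ lies on chromosome 17 between 71868761 and 71886399 (assembly ARS-UI_Ramb_v3.0), in a stretch where it overlaps RSPH14, a gene of the ciliary radial spoke. RSPH14 was at 1.20 FPKM in prepuberty replicate 1 and at most 0.493 FPKM in the other 8 libraries, and it was listed at 0 in puberty replicate 3, where GNAZ was high. The sources used here do not state whether fragments were assigned by strand. The 6 choroid plexus and ependymal markers in the table summed to 363, 600, 7638 and 735 FPKM in prepuberty replicate 1, puberty replicates 2 and 3 and postpuberty replicate 3, the 4 libraries with high or intermediate GNAZ. They summed to 271 FPKM in puberty replicate 1 and to 18.9 to 61.8 FPKM in the other 4 libraries, and all 5 of these had low GNAZ. TTR, which codes for transthyretin and is the defining transcript of choroid plexus, made up most of this sum in all 5 libraries with 271 FPKM or more, reached 7594 FPKM in puberty replicate 3 and was not at 0 in any library (lowest 9.07 FPKM). The other markers did not separate the libraries in this way: FOXJ1, for instance, was at 4.54 FPKM in puberty replicate 1 and at 2.99 FPKM in postpuberty replicate 3, and AQP1 was listed at 0 in puberty replicate 2. ALAS2, 1 of the 5 blood cell markers in the table, was listed at 0 in 8 libraries. The 5 markers summed to 33.7, 13.0, 10.6 and 56.4 FPKM in the 4 libraries with high or intermediate GNAZ. They summed to 5.31 to 9.71 FPKM in the 5 with low GNAZ. HBB alone gave 10.4 of the 13.0 FPKM in puberty replicate 2. There PTPRC (1.55 FPKM) was at its lowest of the 9 libraries, and CD3E (0.765) and CD79A (0.257) were second lowest. The 8 microglial markers summed to 520, 341, 216 and 577 FPKM in the 4 libraries with high or intermediate GNAZ. In the 5 with low GNAZ they summed to 109 to 233 FPKM. C1QB and TYROBP were higher in all 4 than in the 5. The other microglial markers did not separate the libraries, and CX3CR1 (6.36 FPKM) was at its lowest in puberty replicate 2. These marker sums are as deposited, and the matches with GNAZ were not repeated with scaled values, which matters most for puberty replicate 2. Whether choroid plexus, ependyma, blood cells or microglia had a part in the GNAZ pattern was not tested.

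**Figure D1:**
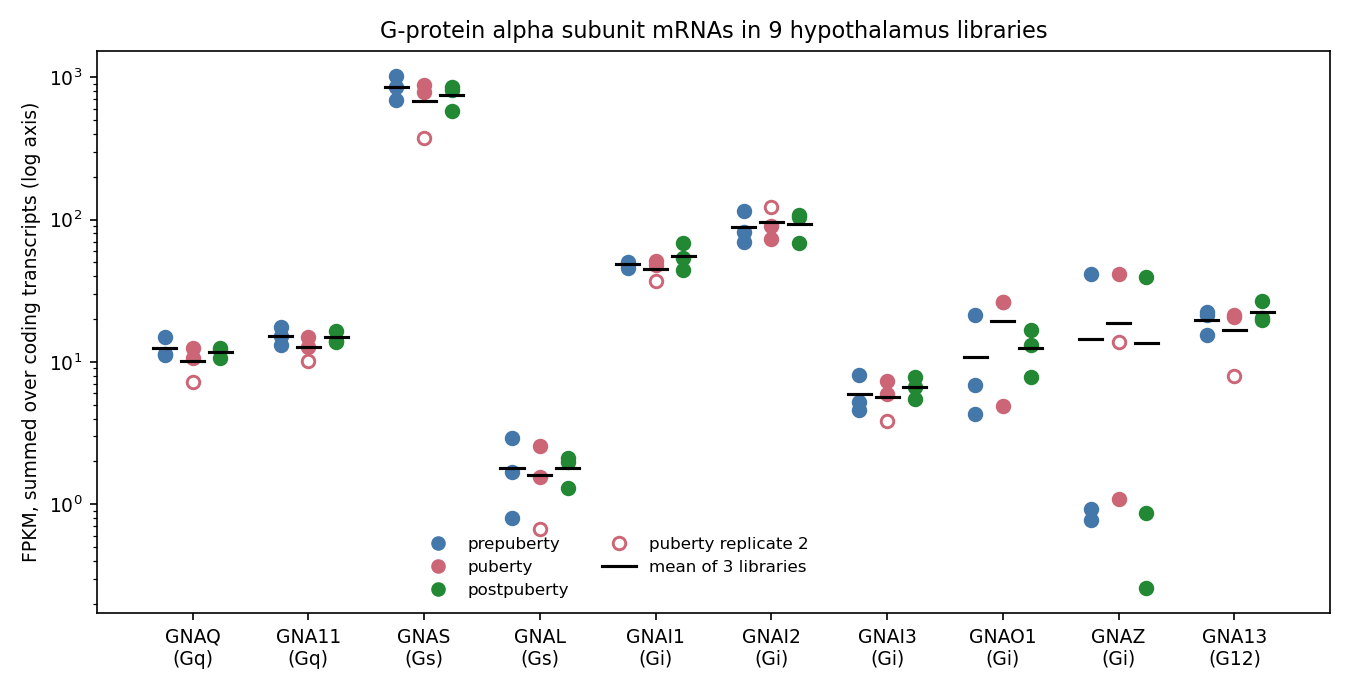
Level of each α subunit mRNA (FPKM, log axis) in the 9 libraries, coloured by stage, with puberty replicate 2 as an open circle and short lines for stage means of 3 libraries. GNAS lies highest in all 9 libraries, and GNAL or GNAZ lies lowest. GNAZ is at most 1.09 FPKM or near 40 FPKM except in puberty replicate 2 (13.8 FPKM). The stages overlap for all 10 genes.

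The Gq pair was low and very even. GNAQ, whose product is the main Gq subunit of brain, measured 11.2, 15.0 and 11.3 FPKM at prepuberty, 12.6, 7.27 and 10.6 FPKM at puberty and 12.5, 12.1 and 10.6 FPKM at postpuberty. GNA11, its close paralogue, measured 13.2, 17.5 and 15.3 FPKM at prepuberty, 12.7, 10.2 and 15.0 FPKM at puberty and 16.6, 13.9 and 14.1 FPKM at postpuberty. For both genes prepuberty replicate 2 was highest and puberty replicate 2 lowest, and all stages overlapped. GNA11 exceeded GNAQ in 9 of 9 libraries, by 1.01 to 1.41 times, and formed 50.3 to 58.5% of the class. Over the 8 libraries the highest value was 1.41 times the lowest for GNAQ and 1.37 times for GNA11, and only 16.5% and 15.1% of the genes kept had a smaller standard deviation of log2(FPKM + 1).

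GNA13 represented the G12 class. Its level was 22.5, 15.5 and 21.3 FPKM at prepuberty, 20.5, 7.92 and 21.5 FPKM at puberty and 26.9, 20.2 and 19.8 FPKM at postpuberty. Puberty replicate 2 lay at 0.379 times the median of the other libraries, the second lowest such ratio of the 10 genes after GNAL (0.368). GNA12, the other gene of this class and not among the 10, ranged from 12.6 to 26.6 FPKM, and GNA13 exceeded it in 6 of 9 libraries, so neither was consistently the more abundant.

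By mean level over the 9 libraries the order was GNAS (762 FPKM), GNAI2 (92.3), GNAI1 (49.7), GNA13 (19.6), GNAZ (15.6), GNA11 (14.3), GNAO1 (14.2), GNAQ (11.5), GNAI3 (6.11) and GNAL (1.73). The first 4 genes kept their order in all 9 libraries, and so did GNAQ, GNAI3 and GNAL among themselves. The neighbours from GNA13 to GNAQ did not differ beyond their spread: GNA13 exceeded GNAZ in 5 libraries, GNAZ exceeded GNA11 in 4, GNA11 exceeded GNAO1 in 5 and GNAO1 exceeded GNAQ in 5 of 9. Among all genes of the table, GNAS ranked 23rd by mean level and GNAI2 ranked 424th, whereas GNAL ranked 10836th.

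Summed by class, Gs mRNA made up 76.2, 84.3 and 78.4% of the 10-gene total at prepuberty, 83.2, 62.0 and 75.1% at puberty and 69.7, 81.8 and 76.8% at postpuberty. Gi mRNA made up 19.6, 11.7 and 16.2%, then 33.9% in puberty replicate 2 against 12.5 and 20.5% in the other puberty libraries, and 23.6, 13.8 and 19.0% at postpuberty. The order Gs above Gi above the other classes held in all 9 libraries, and the stages overlapped for every class. Gq mRNA stayed between 2.18 and 3.48% and G12 mRNA between 1.29 and 3.21% in the 8 libraries, with 2.89% and 1.31% in puberty replicate 2.

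The stage means of the Gs share were 79.7 ± 4.19% at prepuberty, 73.4 ± 10.7% at puberty and 76.1 ± 6.08% at postpuberty (SD, n = 3 each). For the Gi share they were 15.8 ± 3.95%, 22.3 ± 10.8% and 18.8 ± 4.91%. Without puberty replicate 2 the puberty means were 79.2% for Gs and 16.5% for Gi, so most of the lower Gs and higher Gi share at puberty rested on that library. Gq shares averaged 2.62 ± 0.416%, 2.56 ± 0.283% and 2.76 ± 0.629% in the 3 stages, and G12 shares 1.90 ± 0.567%, 1.76 ± 0.389% and 2.34 ± 0.76%. For each class, the difference between any pair of stage means was smaller than the larger of their SDs. Shares over the 10 genes were not tested.

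Because GNAS dominates these shares, they were also computed without it, a choice made after the values were seen. Of the remaining 9 genes, the Gi class then held 76.6 ± 4.77% at prepuberty, 81.2 ± 7.72% at puberty and 77.9 ± 3.13% at postpuberty. Gq held 13.3 ± 3.9%, 10.4 ± 3.27% and 11.6 ± 1.77%, and G12 held 9.19 ± 1.62%, 7.62 ± 3.97% and 9.68 ± 1.47%. Puberty replicate 2 had the highest Gi share (88.7%) and the lowest Gq (7.56%) and G12 (3.44%) shares.

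**Figure D2:**
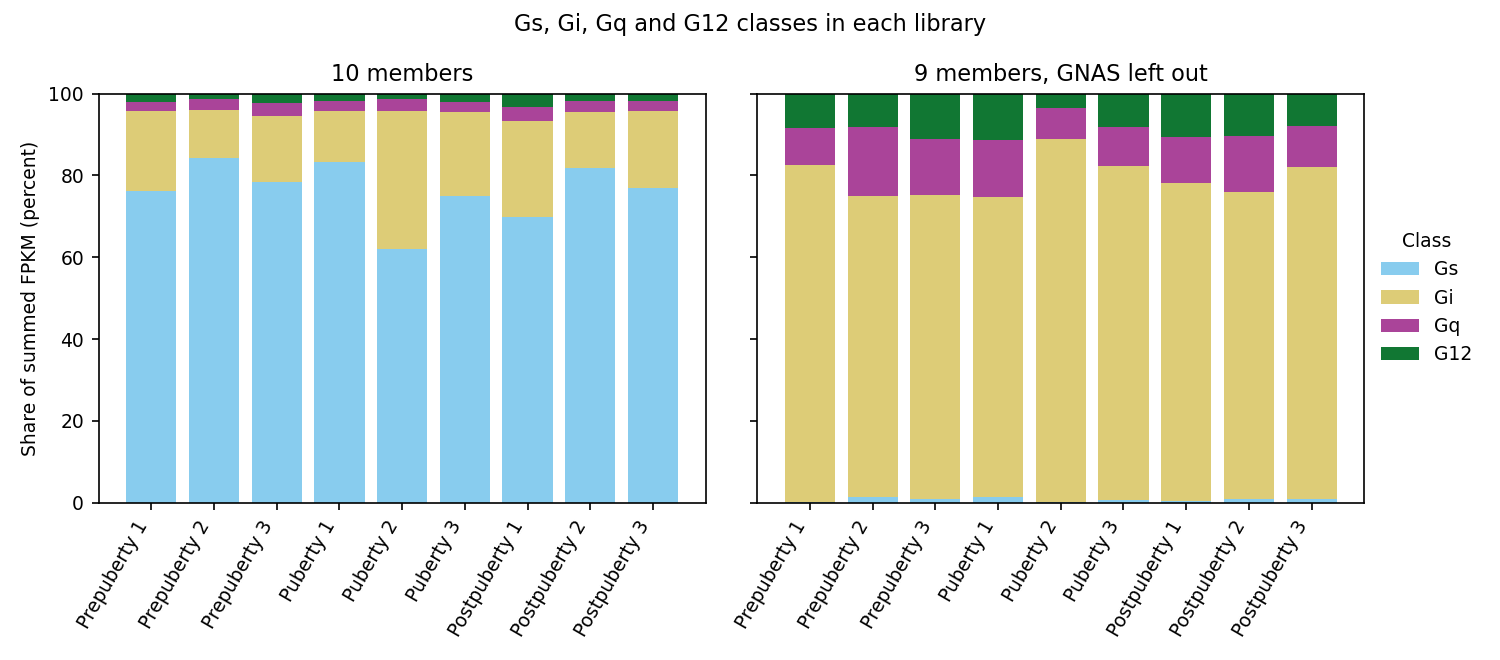
Share of each G-protein class in the summed FPKM (percent) of each library, for the 10 genes on the left and for the 9 genes other than GNAS on the right, with bars stacked to 100%. Gs leads in all 9 libraries on the left and is lowest in puberty replicate 2 (62.0%), and Gi leads in all 9 on the right.

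The 10 genes were represented by 33 coding transcripts, 20 of them of GNAS. GNAQ, GNA11, GNAI1, GNAI3, GNAZ and GNA13 had a single coding transcript each, and GNAI2 had 1 transcript with over 99% of its level. Transcripts of one gene share most of their sequence, so the split of fragments between them is an estimate. For GNAS, 4 transcripts each held at least 10% of the mean level: XM_027976997.3 with 37.1%, XM_027976998.3 with 18.2%, XM_027976996.3 with 17.9% and XM_027976999.3 with 12.1%.

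The leading GNAS transcript, XM_027976997.3, measured 190 to 466 FPKM in the 8 libraries and 23.1 FPKM in puberty replicate 2. XM_027976996.3 behaved alike, with 75.6 to 236 FPKM against 21.6. XM_027977001.3 went the other way, with 8.06 to 35.9 FPKM in the 8 libraries and 91.1 in puberty replicate 2, where it held 24.4% of the gene's level against at most 5.18% elsewhere. XM_060396967.1 (13.2 FPKM against at most 4.43), XM_060396968.1 (9.89 against at most 4.13) and XM_060396966.1 (9.18 against at most 7.43) were also above all 8 other libraries there.

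GNAO1 showed a similar exchange. XM_042231647.1 held 75.2 to 98.0% of its level in the 8 libraries, and XM_042231648.1 held 63.6% in puberty replicate 2, where it measured 16.8 FPKM against 0.207 to 3.24 FPKM elsewhere. The equal GNAO1 sums of puberty replicates 2 and 3 (26.4 FPKM each) therefore differed in the mix of these 2 transcripts. XM_042231647.1 measured 9.60 FPKM in puberty replicate 2 and 24.8 FPKM in puberty replicate 3. The third coding transcript was listed at 0 in all 9 libraries. GNAL had 2 transcripts that changed places between animals of one stage, and XM_042239290.2 held from 1.34 to 91.2% of the gene in the 8 libraries at levels of at most 2.66 FPKM.

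**Figure D3:**
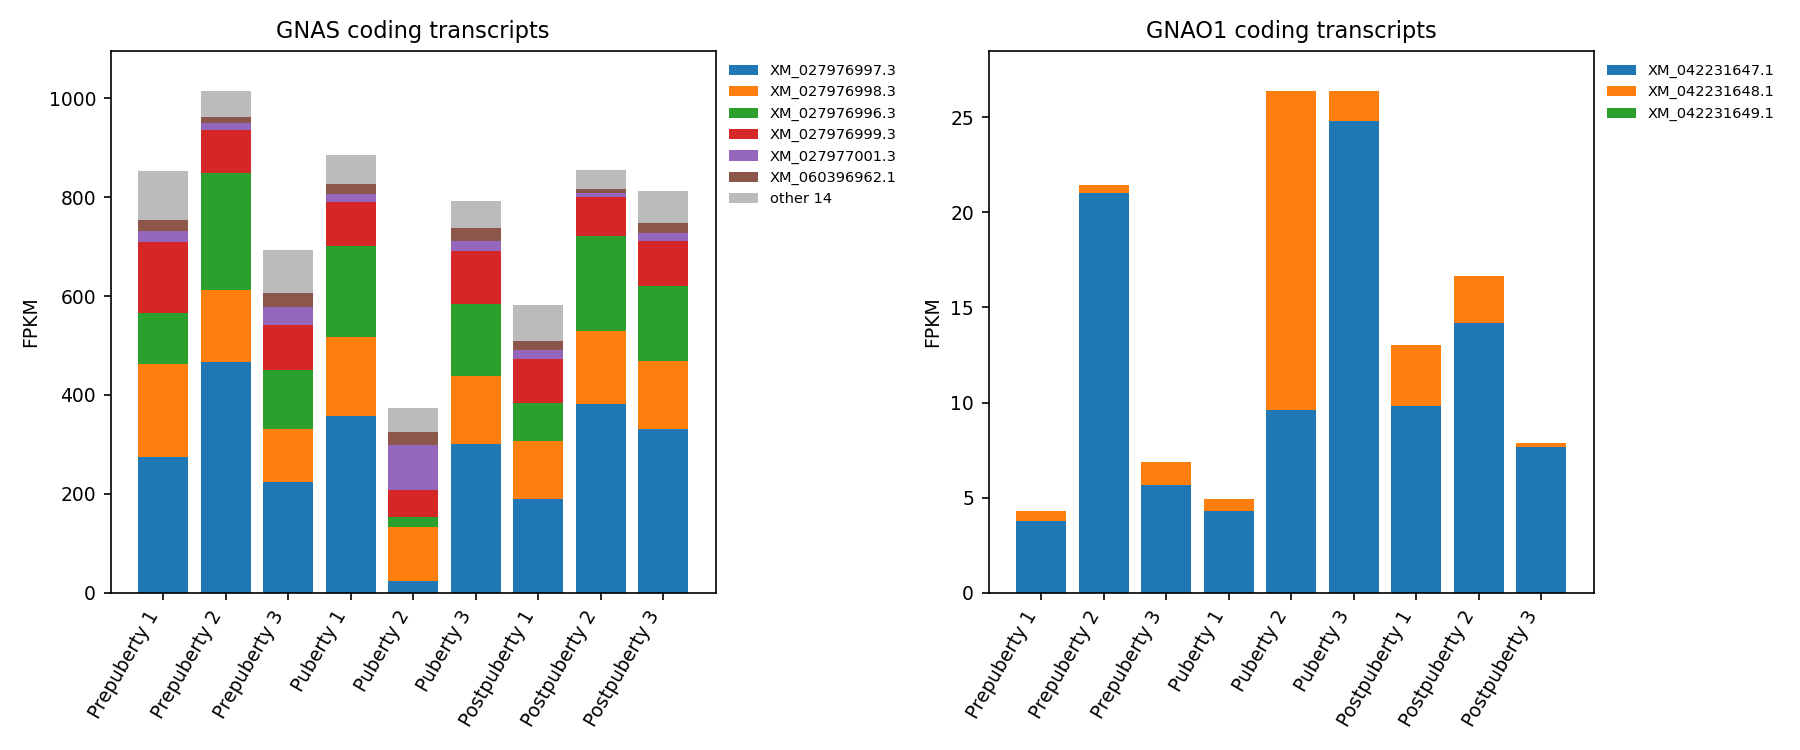
FPKM of the coding transcripts of GNAS (left) and GNAO1 (right) in each library, as stacked bars. In puberty replicate 2, XM_027976997.3 of GNAS is at 23.1 FPKM against at least 190 elsewhere, and XM_042231648.1 of GNAO1 is at 16.8 FPKM against at most 3.24.

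Stages were compared gene by gene with limma on log2(FPKM + 1), in 1 fit of the 14238 genes whose mean level reached 0.5 FPKM in at least 1 stage. All 10 genes passed this filter. A gene was called if its Benjamini-Hochberg adjusted p over all genes was below 0.05 and its log2 fold change was 1 or more in size, and a positive value means higher in the stage named first. Between prepuberty and puberty, 0 of the 10 genes were called by limma and 0 had an unadjusted p below 0.05, where 0% of all genes were called and 1.82% (259 genes) had an unadjusted p below 0.05. None of the 10 separated the 3 prepuberty from the 3 puberty libraries without overlap, which 2.84% of all genes did with prepuberty higher and 2.32% with prepuberty lower. Without puberty replicate 2 the 10 genes again gave 0 calls by limma, 0 unadjusted p-values below 0.05 and 0 separated sets, beside 0%, 1.66%, and 4.55% (prepuberty higher) or 7.16% (prepuberty lower) of all genes.

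Between prepuberty and puberty the differences were small and imprecise for most members. GNAS differed by 0.40 ± 0.38 (log2, SE) with 9 libraries, with a 95% confidence interval from -0.47 to 1.27 and a limma adjusted p of 0.838. Without puberty replicate 2 the difference was 0.01 ± 0.26. GNAQ differed by 0.29 ± 0.26 and GNA11 by 0.27 ± 0.24, which became 0.09 ± 0.18 and 0.13 ± 0.17 without that library. GNA13 went from 0.34 ± 0.37 to -0.10 ± 0.21. GNAI1, GNAI2, GNAI3 and GNAL lay between -0.11 and 0.11 with 9 libraries and between -0.18 and 0.09 with 8, and all 4 changed sign. The largest differences belonged to the most variable genes, GNAZ with -1.05 ± 1.69 and GNAO1 with -0.75 ± 0.70, both higher at puberty, and their intervals ran from -4.87 to 2.76 and from -2.32 to 0.83. Without puberty replicate 2 they were -0.84 ± 2.08 and -0.38 ± 0.78, and leaving out each library in turn gave -2.56 to -0.08 for GNAZ and -1.48 to -0.30 for GNAO1.

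Between puberty and postpuberty, 0 of 10 genes were called by limma and 0 had an unadjusted p below 0.05, beside 0% and 2.14% (305) of all genes. No member separated the stages, which 2.07% of all genes did with puberty higher and 5.25% with puberty lower. With 8 libraries the 10 genes had 0 limma calls, 0 unadjusted p-values below 0.05 and 0 separations, beside 0%, 2.11%, and 6.19% (puberty higher) or 7.9% (puberty lower) of all genes. GNA13 had the smallest p of the 10, with a difference of -0.50 ± 0.37, a 95% interval from -1.35 to 0.34 and a limma adjusted p of 0.780. Without puberty replicate 2 its difference was -0.07 ± 0.21. GNAS moved from -0.21 ± 0.38 to 0.18 ± 0.26, GNAI2 from 0.04 ± 0.31 to -0.16 ± 0.29, GNAL from -0.16 ± 0.37 to 0.12 ± 0.35 and GNAO1 from 0.34 ± 0.70 to -0.03 ± 0.78, so these 4 changed sign. The largest difference was that of GNAZ, with 1.26 ± 1.69, or 1.04 ± 2.08 without puberty replicate 2. It was 2.45 without puberty replicate 1 and 0.28 without puberty replicate 3, and 0.33, 0.61 and 2.83 without postpuberty replicate 1, 2 and 3. With a pseudocount of 0.1 it was 1.88. For GNAQ the difference went from -0.22 ± 0.26 to -0.02 ± 0.18, and for GNAI1 from -0.28 ± 0.24 to -0.15 ± 0.20.

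Between prepuberty and postpuberty, the comparison that puberty replicate 2 enters only through the shared spread, 0 of 10 genes were called by limma and 0 had an unadjusted p below 0.05, beside 0% and 0.815% (116) of all genes. No member separated the stages, beside 1.4% of all genes with prepuberty higher and 3.17% with prepuberty lower. With 8 libraries, limma calls, unadjusted p-values below 0.05 and separations were 0 for the members and 0%, 1.87%, and 1.37% (prepuberty higher) or 3.16% (prepuberty lower) for all genes. GNAI1 had the smallest p, with -0.17 ± 0.24 and a limma adjusted p of 1. With 8 libraries the intervals were narrowest here: from -0.32 to 0.40 for GNA11, from -0.30 to 0.45 for GNAQ and from -0.36 to 0.74 for GNAS. A change of 1 on the log2 scale lay outside these 3 intervals in either direction, and inside those of GNAO1 (-2.05 to 1.23) and GNAZ (-4.15 to 4.56). The 3 comparisons share libraries, so their values for a gene are not independent.

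The median log2 difference over the 10 genes was 0.10 between prepuberty and puberty, -0.21 between puberty and postpuberty and -0.07 between prepuberty and postpuberty. Without puberty replicate 2 it was -0.06, -0.02 and -0.07. The medians over all genes tested were 0.14, -0.19 and -0.05. With 8 libraries the medians over all genes were -0.02, -0.03 and -0.05.

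**Figure D4:**
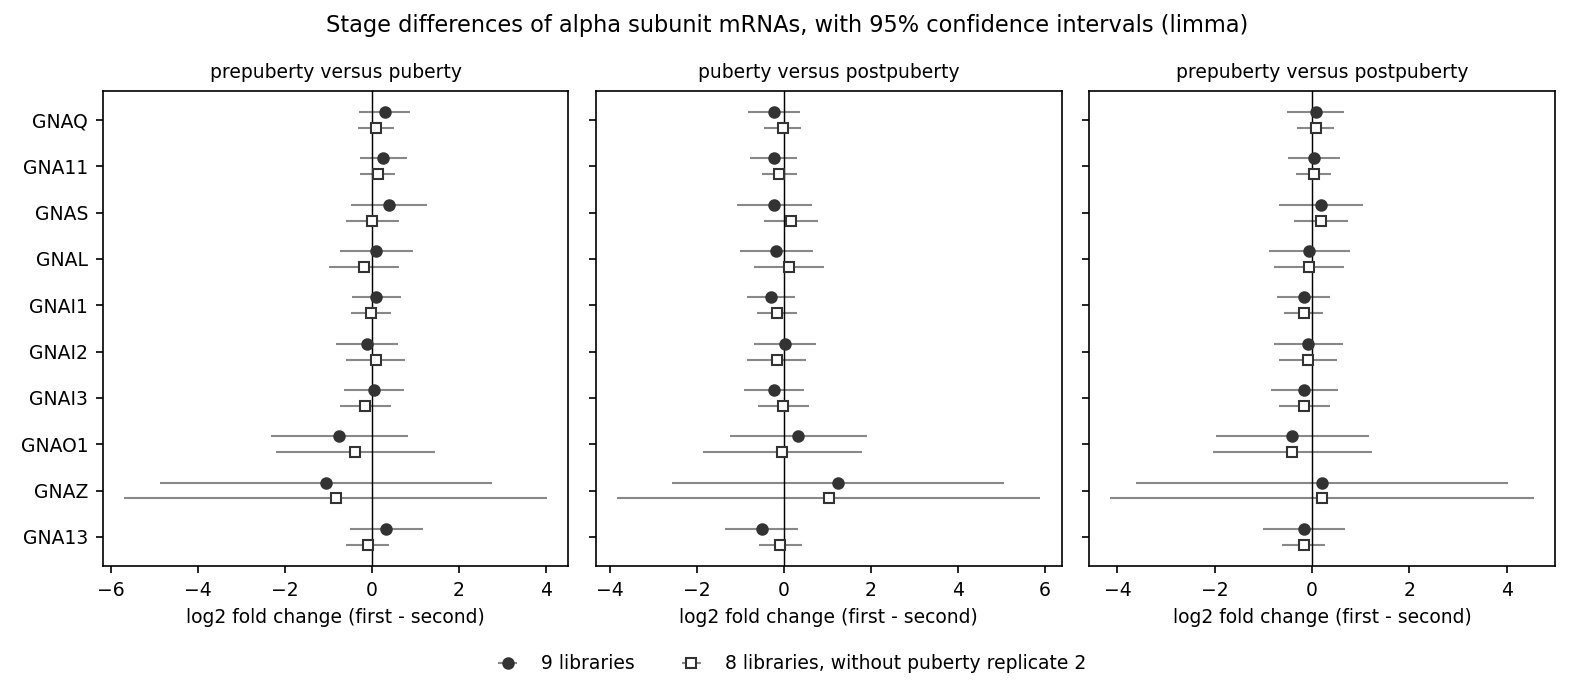
Log2 fold change on the log2(FPKM + 1) scale of each α subunit gene in the 3 stage comparisons, with 95% confidence intervals from limma, for 9 libraries (filled circles) and for 8 libraries without puberty replicate 2 (open squares); positive values are higher in the stage named first. All intervals include 0, and those of GNAZ and GNAO1 are the widest.

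Of the 6 other α subunit genes, only GNA12 was above 3 FPKM in any library. GNA15, a Gq-class gene of blood cells, ranged from 0.764 to 2.41 FPKM, and GNA14 reached at most 1.01 FPKM. GNAT2, the cone transducin gene, was at 0.557 FPKM in the mean, GNAT1, the rod transducin gene, was at most 0.0638 FPKM, and GNAT3, the taste gustducin gene, was listed at 0 in 8 of 9 libraries. GNA12 was lower in all 3 puberty than in all 3 postpuberty libraries, with a difference of -0.48 ± 0.24 and a limma adjusted p of 0.780, and 5.25% of all genes had this ordering. Puberty replicate 2 had the lowest GNA12 level. Without it the puberty mean went from 15.6 to 17.1 FPKM, against 22.1 FPKM at postpuberty. The ordering held with 8 libraries, where 7.9% of all genes had it. With all 16 genes counted, the G12 share of stage means was 3.60% at prepuberty, 3.45% at puberty and 4.53% at postpuberty.

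The partners of the α subunits were taken from lists by role, and limma called 0 of their genes in any comparison, with 9 or 8 libraries. Unadjusted p-values below 0.05 are counted beside the shares of all genes given above for each comparison. Of 5 β and 12 γ subunit genes, all were kept, and 1 (GNG11, puberty against postpuberty) and 1 (GNB3, prepuberty against postpuberty) had an unadjusted p below 0.05 with 9 libraries. With 8 libraries these were GNB3 and GNG8, both between prepuberty and postpuberty. GNB1 (mean 134 FPKM) and GNB2 (57.3 FPKM) led the β subunits, and GNG3 (63.1 FPKM) and GNG11 (41.0 FPKM) the γ subunits. Over the 8 libraries GNG7 (33.0 FPKM) exceeded GNG11 (31.8 FPKM). GNB1 differed by 0.13 ± 0.25 between prepuberty and puberty. GNG11 reached 115 FPKM in puberty replicate 2 against 21.6 to 42.4 FPKM in the other libraries, and its difference of 1.07 ± 0.43 between puberty and postpuberty had a limma adjusted p of 0.780. Without that library it was 0.57 ± 0.27, with a limma unadjusted p of 0.0701.

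Effectors were kept in the same way. Of 10 adenylyl cyclases, the enzymes of the Gs and Gi routes, 9 were tested and 1 (ADCY8, puberty against postpuberty) had an unadjusted p below 0.05 with 9 libraries. ADCY8 was at 0.0449 FPKM in puberty replicate 2 against 1.15 to 5.54 FPKM elsewhere, and without that library 0 of the 9 had an unadjusted p below 0.05 by limma. ADCY2 (19.2 FPKM) and ADCY1 (8.49 FPKM) were the most abundant, and ADCY2 differed by 0.38 ± 0.35 between prepuberty and puberty. All 4 phospholipase C beta genes, the enzymes of the Gq route, were tested and 0 had an unadjusted p below 0.05 by limma with 9 or 8 libraries. PLCB4 (7.61 FPKM) and PLCB3 (3.65 FPKM) led, and the 4 together summed to 9.28 to 30.0 FPKM in the 8 libraries and 2.35 FPKM in puberty replicate 2. Of 7 genes of the G12 route, 6 were tested, with RHOA (12.8 FPKM) and ARHGEF12 (11.2 FPKM) highest and 1 (ARHGEF11, prepuberty against postpuberty) with an unadjusted p below 0.05 with 9 and with 8 libraries.

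Regulators showed a similar picture. Of 20 RGS genes, whose products speed GTP hydrolysis by α subunits, 18 were tested and 0 had an unadjusted p below 0.05 by limma with 9 libraries. With 8 libraries RGS19 did, between prepuberty and puberty (0.75 ± 0.30) and between prepuberty and postpuberty (0.67 ± 0.27). RGS5, which is also a marker of pericytes, led with 27.8 FPKM, was between 20.4 and 42.7 FPKM in the 8 libraries and was listed at 0 in puberty replicate 2. RGS8 followed with 18.3 FPKM. Of 10 chaperones and modulators, 9 were tested, GPSM1 (15.0 FPKM) and RIC8A (14.0 FPKM) were highest, and RIC8B alone, the chaperone of Gs-class subunits, had an unadjusted p below 0.05, between puberty and postpuberty (-0.85 ± 0.36, limma adjusted p of 0.780). It was listed at 0 in puberty replicate 2, and without that library its difference was -0.46 ± 0.25 and 0 genes of the list had an unadjusted p below 0.05 by limma in any comparison.

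Receptors were listed by their main coupling, which for many of them is not exclusive. Of 17 Gq-coupled receptors 11 were tested, of 21 Gs-coupled receptors 14, and of 31 Gi-coupled receptors 28. Their summed levels in the 8 libraries were 13.2 to 30.4 FPKM, 36.8 to 67.8 FPKM and 167 to 262 FPKM, so the receptor mRNAs ranked Gi above Gs above Gq in these lists, whereas the α subunit mRNAs ranked Gs above Gi above Gq. The lists differ in length and were not drawn up to cover every receptor. GRM5 (4.19 FPKM) led the Gq list, ADCYAP1R1, the PACAP receptor (29.9 FPKM), and PTGER4 (3.90 FPKM) the Gs list, and S1PR1 (43.4 FPKM) and LPAR1 (32.4 FPKM) the Gi list. With 9 libraries, unadjusted p-values below 0.05 by limma were found for GRM3 in both comparisons with puberty, for CRHR2 between puberty and postpuberty and for SSTR3 between prepuberty and postpuberty, and 0 of these genes were called. With 8 libraries they were found for CRHR2 and SSTR3 between prepuberty and puberty, for CRHR2 and GRM3 between puberty and postpuberty, and for SSTR3, GABBR1 and CHRM4 between prepuberty and postpuberty, again with 0 calls.

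The genes whose pattern over the 8 libraries was most like that of the leading member of each class were found among 6857 genes with a mean level of at least 5 FPKM, as a description. The likeness is Pearson's r of log2(FPKM + 1) over the 8 libraries, which come from 3 stages and differ in their marker sums. For GNAS they were ALKBH7 (r = 0.952), PPIL1 (0.943) and SCG2 (0.943). For GNAI2 they were TNFRSF1A (0.984), MAPRE1 (0.982) and MKNK2 (0.978), and for GNA13 they were RPS23 (0.975), SNX9 (0.967) and SMARCC1 (0.964). GNA11, the most even of the 4, had the lowest leading values, with SLTM (0.914), DPY19L1 (0.913) and C1QTNF3 (0.911).

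Marker sums moved between animals of one stage, and are given here for comparison with the 10 genes. The 11 neuronal markers in the table summed to 918 to 2165 FPKM at prepuberty, 639 to 1958 at puberty and 651 to 2408 at postpuberty, with the 3 low values in prepuberty replicate 1, puberty replicate 2 and postpuberty replicate 1. GNAL was lowest in the same 3 libraries (0.795, 0.673 and 1.31 FPKM), and GNAS was lowest in 2 of them. The 8 oligodendrocyte markers summed to 6527 to 14893 FPKM, and the 8 microglial markers to 109 to 577 FPKM, in the 9 libraries. The 8 endothelial and mural markers summed to 142 to 450 FPKM in the 8 libraries and to 680 FPKM in puberty replicate 2. CLDN5 alone gave 624 FPKM of the latter, while RGS5 (0), PDGFRB (0.383), FLT1 (3.80), PECAM1 (2.94) and CDH5 (1.91 FPKM) were at their lowest of the 9 libraries there, VWF (19.95) was at its highest and ACTA2 (26.7) lay within the range of the others. Their part in the levels of the 10 genes was not tested.

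**Figure D5:**
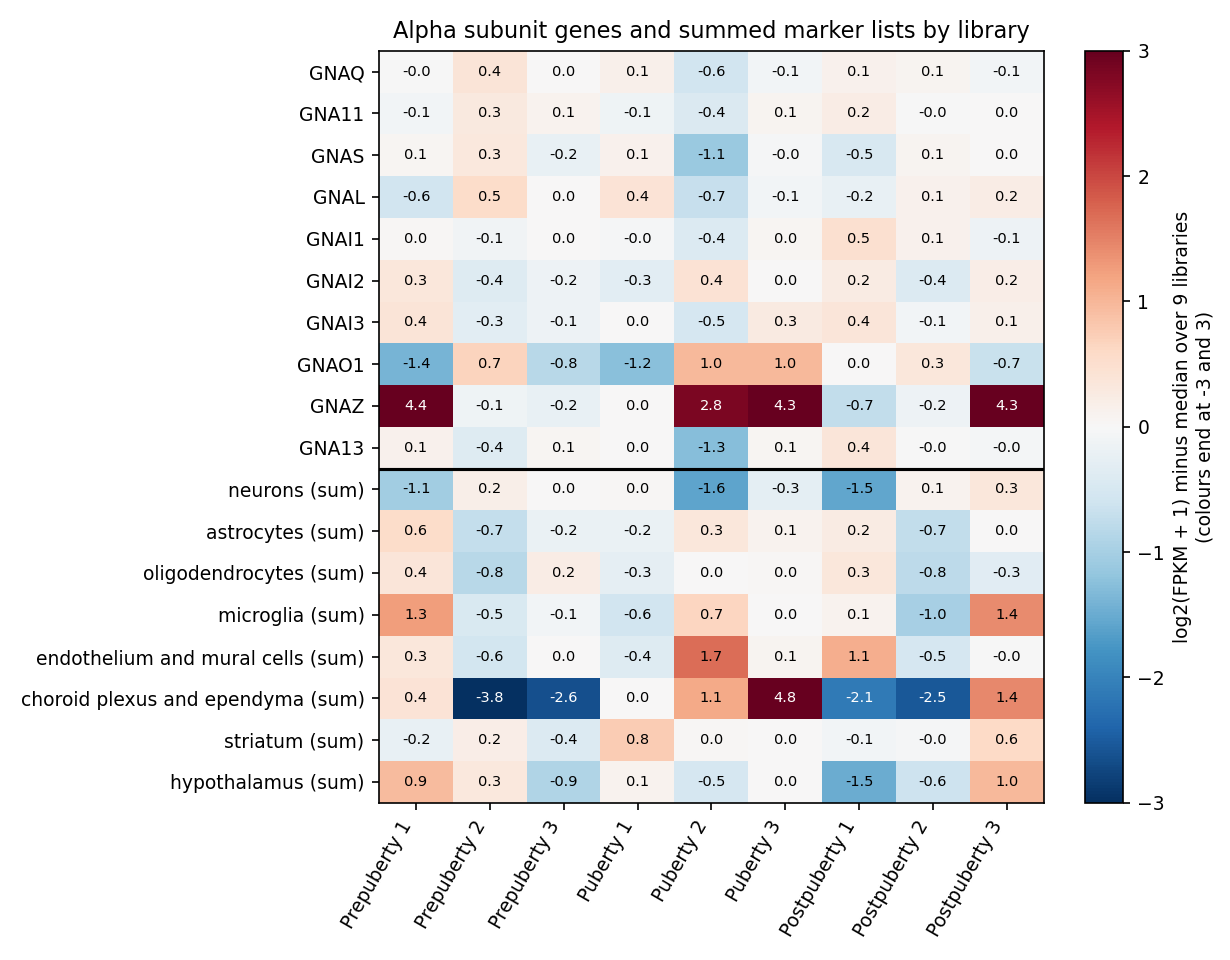
Heat map of log2(FPKM + 1) minus its median over the 9 libraries, for the 10 α subunit genes (above the line) and the summed marker lists (below), with libraries as columns. GNAZ is high in 1 library of each stage and intermediate in puberty replicate 2, and the other genes move by less, with 7 of the 10 lowest in puberty replicate 2.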

How the data were processed

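Poly-A mRNA, selected from total hypothalamic RNA of 9 sheep, was sequenced by the authors, who trimmed reads with Trimmomatic (0.32 in the submitters' processing notes), aligned them to ARS-UI_Ramb_v3.0 with HISAT2 and assembled transcripts with StringTie. The deposited table holds FPKM per transcript, although it is described as raw counts. The read depth behind a single value is not part of the table, and precision was judged by the spread between animals.

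Coding rows (76682 with a RefSeq symbol) were summed per gene. Another 22600 assembled rows of the 115108 carry no gene symbol and were not used. Stages came from the sample labels. Stage differences were fitted with limma 3.58.1 (R 4.3.3) with a variance trend and a pseudocount of 1, without scaling between libraries. The study's own correction for unwanted variation and its count test were not applied, since both need counts. The 10 genes, their partner lists and the marker lists were chosen with earlier results of these data known. Partner genes are named if they are the 2 most abundant of their list or if they were called, except 1 gene that is not reported here; those named for an unadjusted p, GNAZ's neighbour RSPH14 and single marker genes were added after their values were seen. The fit was tested on simulated data with known changes. Alternatives covered scaling, pseudocount, filter, noncoding transcripts, variance trend, replicate block and leaving out each library. Python 3.11.15 with pandas 2.3.3, numpy 2.4.6 and matplotlib 3.10.9 was used.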

Additional observations from a re-analysis of the deposited data

How the results depend on the processing

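With limma, 0 of the 10 genes and 0 of all genes were called in the 3 comparisons under each alternative that was run, including leaving out each library in turn. Adjusted p-values of the 10 genes over the alternatives ranged from 0.581 to 1 (prepuberty against puberty), from 0.516 to 1 (puberty against postpuberty) and stayed at 1 (prepuberty against postpuberty). At an unadjusted p below 0.05, leaving out puberty replicate 1 or 3 raised the count over all genes from 259 to 728 or 625 between prepuberty and puberty, and from 305 to 750 or 836 between puberty and postpuberty. Leaving out puberty replicate 2 raised it from 116 to 265 between prepuberty and postpuberty.

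Scaling moved the median of all genes, so directions of small differences are relative to it. Between prepuberty and puberty this median was 0.14 without scaling, 0.26 with equal totals and -0.01 with quantile normalization, and between puberty and postpuberty it was -0.19, -0.33 and 0.01. Of 267 log2 fold changes of the 10 genes recomputed without leaving out a library, 9 changed sign. Between prepuberty and puberty GNAI2 became 0.10 with equal totals and 0.12 with quantile normalization, GNAI3 became -0.01 with the upper quartile and -0.14 with quantile normalization, and GNAL became -0.14 with quantile normalization. Between puberty and postpuberty GNAI2 became -0.20 with equal totals and -0.19 with quantile normalization, and quantile normalization gave 0.12 for GNAL and 0.04 for GNAI3. The cause was not tested.

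Leaving out 1 library changed the sign of 26 of 270 values. The ranges over the libraries left out were, between prepuberty and puberty, -0.18 to 0.39 for GNAL, -0.03 to 0.19 for GNAI1, -0.32 to 0.09 for GNAI2, -0.16 to 0.23 for GNAI3 and -0.10 to 0.57 for GNA13. Between puberty and postpuberty they were -0.44 to 0.18 for GNAS, -0.43 to 0.12 for GNAL, -0.17 to 0.21 for GNAI2 and -0.03 to 1.07 for GNAO1. Between prepuberty and postpuberty they were -0.05 to 0.14 for GNAQ, -0.05 to 0.13 for GNA11, -0.33 to 0.23 for GNAL, -0.28 to 0.08 for GNAI2, -1.01 to 0.03 for GNAO1 and -1.31 to 1.78 for GNAZ.

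With the replicate number as a replicate block, 0 genes were called in all 3 comparisons, and GNAS differed by 0.40 between prepuberty and puberty. The numbers do not pair the animals: 2 of 9 same-numbered pairs had a correlation of deviations over 0.1 (range -0.31 to 0.51), and 3 of 9 libraries correlated best with their own number.

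The share of every class moved by more than 1 SD when GNAS was left out. With all 16 genes counted, only the G12 share did. Without GNAS, which was tried after seeing the data, Gs held 0.898, 0.766 and 0.795% at prepuberty, puberty and postpuberty, Gi 76.6, 81.2 and 77.9%, Gq 13.3, 10.4 and 11.6%, and G12 9.19, 7.62 and 9.68%. With all 16 genes, G12 held 3.60, 3.45 and 4.53%. With noncoding transcripts included, shares and stage means of single genes moved by less than 1 SD. Medians and leaving out 1 of 3 libraries cannot move a stage mean by 1 SD, so they say nothing of stability: without prepuberty replicate 1 the GNAZ mean of that stage was 0.85 FPKM, and without postpuberty replicate 3 that of postpuberty was 0.563 FPKM. With a minimum mean of 2 FPKM, GNAL was not tested. The log2(FPKM + 1) scale shrinks differences at low levels, as for GNAL, at 1.73 FPKM, and for GNAZ where it was at most 1.09 FPKM. Between puberty and postpuberty a pseudocount of 0.1 moved GNAL from -0.16 to -0.31 and GNAZ from 1.26 to 1.88.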
